A study of Mus musculus with 22 samples.

Results

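The lipid droplet and lipolysis genes were 10 genes named by symbol: Plin1, Plin2, Plin4, Cidec, Pnpla2, Abhd5, G0s2, Lipe, Mgll and Aqp7. They were taken as the rows for those symbols, and the rule used no measured value, though the members were chosen with earlier results of these data known. All 10 were among the 52526 symbols listed, and all 10 were among the 15138 genes tested.

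RNA came from the left 4th mammary tissue of 22 female C57BL/6J mice, aged 7 to 8 weeks, that carried engrafted EO771 cells. EO771 is a mouse mammary cancer line of the same strain, here made to express firefly luciferase. Mice had either a running wheel or, as controls, its hub alone for 2 weeks before engraftment and until collection. Clodronate liposomes, which kill phagocytes that take them up, or PBS liposomes were given into a vein 24 hours before engraftment and again at engraftment, and tissue was collected 24 hours after it.

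The 4 groups were 6 control mice with PBS liposomes, 6 wheel mice with PBS liposomes, 5 control mice with clodronate liposomes and 5 wheel mice with clodronate liposomes. Every group had engrafted cells and liposomes, so no group was free of either. Each mouse gave 1 library, in which RNA of host tissue and of engrafted cells was pooled. Single mice are named below by group and replicate number, as in control PBS 3.

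Libraries were made from transcript 3' ends (QuantSeq), which gives about 1 tag per transcript whatever its length, so levels can be set beside each other between genes. Values are in CPM, read counts scaled to the reads of each library, with every value under 1 CPM listed as 1. Libraries held 13256467 to 20484578 reads, with a median of 16293026. The group medians were 16753273.5 reads in control PBS, 14933218 in wheel PBS, 16181268 in control clodronate and 16457436 in wheel clodronate. A value listed at 1 CPM could hide at most 13 to 20 reads, depending on the library.

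Adipocytes store triglyceride in a large lipid droplet, whose coat of perilipins and related proteins controls the access of enzymes to the fat inside. On a hormonal signal such as noradrenaline, protein kinase A acts on perilipin 1 and on hormone-sensitive lipase, and lipases then take triglyceride apart stepwise into fatty acids and glycerol. In the mammary gland the ducts lie in a fat pad made largely of white adipocytes, which supplies lipid to the epithelium and to tumor cells growing beside it.

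The tissue label was checked against marker genes. All 12 adipocyte markers were above the floor in all 22 mice, with Adipoq between 865 and 2656 CPM and Car3, the most abundant, at a mean of 9618 CPM. All 10 mammary epithelium markers were also above the floor in every mouse, with Krt18 between 34.9 and 213 CPM. Of 12 macrophage markers, 11 were above the floor in every mouse, and Fcgr1 was at the floor in 4 mice.

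Some libraries stood apart from the rest. The lymphocyte score, a mean of log2(CPM + 1) over 12 marker genes, was 4.17 in control PBS 2, 4.45 in wheel PBS 3, and 5.43, 5.66 and 4.88 in wheel clodronate 3, 4 and 5. It lay between 1.00 and 1.40 in the other 17 mice. The summed level of the 12 genes was 254, 326, 703, 784 and 469.5 CPM in those 5 mice, with Ms4a1 the most abundant, and at most 23.8 CPM elsewhere.

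Skeletal muscle markers differed more widely still. The muscle score over 10 genes was 10.81 in control clodronate 2, 9.88 in wheel clodronate 2, 7.89 in control PBS 3 and 7.54 in control clodronate 3, and 6.77 or less in the other mice. Acta1, the most abundant of these genes, ranged from 5.46 CPM in wheel PBS 4 to 6082 CPM in control clodronate 2. Results are therefore also given without the 5 lymphocyte-high mice and without the 4 muscle-high mice.

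The droplet coat was represented by 4 members. Plin1 encodes perilipin 1, the coat protein that restrains lipolysis until it is phosphorylated. Plin2 encodes perilipin 2, which coats droplets in many cell types, and Plin4 encodes perilipin 4, found on small nascent droplets. Cidec encodes a protein that sits where droplets touch and helps them fuse into a large one.

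Lipolysis itself was represented by 5 members. Pnpla2 encodes adipose triglyceride lipase, which takes the opening step, and Abhd5 encodes its coactivator, held by perilipin 1 at rest. G0s2 encodes an inhibitor of that lipase. Lipe encodes hormone-sensitive lipase, which acts mainly on diglyceride, and Mgll encodes the lipase for monoglyceride. Aqp7 encodes a channel through which glycerol leaves the adipocyte.

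In GENCODE M21 on build GRCm38, the coat genes were chr7:79720218-79732903 for Plin1, chr4:86648386-86670060 for Plin2, chr17:56100591-56109803 for Plin4 and chr6:113424634-113435760 for Cidec, all on the minus strand. Pnpla2 lay at chr7:141455198-141460743, Abhd5 at chr9:122351608-122381524 and Mgll at chr6:88724412-88828360, all on the plus strand. G0s2 lay at chr1:193272161-193273217, Lipe at chr7:25379527-25398710 and Aqp7 at chr4:41033074-41048139, all on the minus strand. The last 400 bases of Plin4 overlapped exons of Hdgfl2 on the other strand, a gene at 11.8 to 29.6 CPM itself. Those of Abhd5 overlapped A730085K08Rik, which was at the floor in all 22 mice. Stretches of at least 50 bases within the last 400 bases of Aqp7 matched transcripts of 88 other genes at 97% identity or more, so the Aqp7 value is less certain than the rest. Of the other members only Abhd5 had such a match, to A730085K08Rik over all 400 bases.

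Promoters are shown for 3 members because their levels mark the ends of the range seen between mice below: Cidec and Pnpla2 had the highest correlation of any pair, and Plin2 had the lowest median correlation with the rest. Sequences are the 250 bases before a RefSeq start site on GRCm38.p6, read 5' to 3' on the strand of the gene. Capitals mark AGGTCA (a nuclear receptor half-site), GGGCGG (a GC box) or CCAAT on either strand. Cidec had 2 start sites listed, and the outer window is shown because it abuts the annotated gene start. The windows were chr4:86670060-86670309 (minus strand) for Plin2, chr6:113435761-113436010 (minus strand) for Cidec and chr7:141454938-141455187 (plus strand) for Pnpla2.
Plin2: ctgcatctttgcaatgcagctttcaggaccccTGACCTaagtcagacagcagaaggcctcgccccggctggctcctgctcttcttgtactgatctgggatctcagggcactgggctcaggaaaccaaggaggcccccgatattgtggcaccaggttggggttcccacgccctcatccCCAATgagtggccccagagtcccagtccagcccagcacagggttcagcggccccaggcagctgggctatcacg
Cidec: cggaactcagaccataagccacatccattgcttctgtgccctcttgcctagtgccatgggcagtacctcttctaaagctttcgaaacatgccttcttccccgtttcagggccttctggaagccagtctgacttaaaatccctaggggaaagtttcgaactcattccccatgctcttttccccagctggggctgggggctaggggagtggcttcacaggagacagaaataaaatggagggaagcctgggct
Pnpla2: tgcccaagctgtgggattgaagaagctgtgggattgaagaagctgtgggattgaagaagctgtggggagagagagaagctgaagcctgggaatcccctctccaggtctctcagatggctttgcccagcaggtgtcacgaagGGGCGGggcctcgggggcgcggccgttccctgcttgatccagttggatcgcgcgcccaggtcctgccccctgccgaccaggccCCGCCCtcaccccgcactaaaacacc
The 10 members had 14 such windows, searched with 32841 windows of all genes. The nuclear receptor half-site AGGTCA was found before 3 members, Plin2, Abhd5 and Aqp7, and in 14.03% of all windows. The GC box GGGCGG was found before 5 members, Pnpla2, Abhd5, G0s2, Lipe and Mgll, and in 32.7% of all windows, and CCAAT before 2 members, Plin2 and Plin4, and in 33.9%. The E-box CACGTG was found before Lipe and Mgll, against 6.02% of all windows, and the half-site AGAACA before Mgll and Aqp7, against 16.1%. The DR1 repeat, a pair of AGGTCA with 1 base between them, was found before 0 members and in 0.0335% of all windows. The full CREB site TGACGTCA was found before 0 members (1.55% of all windows), the TATA box TATAAA before 0 (12.4%), and a C/EBP palindrome, ATTGC directly followed by GCAAT, before 0 (0.00609%). A DR1 repeat holds the half-site AGGTCA, so those searches overlap. The Cidec window shown held none of the 3 marked motifs. Each member was counted once, whatever its number of windows, while the shares are of single windows. Of the 14 member windows, the half-site AGGTCA was in 4 and the GC box in 5. CCAAT, the E-box and AGAACA were in 2 each. Each motif was searched on both strands, and a match describes letters only.

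The members were among the more abundant transcripts of the tissue. Mean levels over 22 mice were 933 CPM for Pnpla2, 893 for Mgll, 721 for Cidec, 717 for Lipe, 565 for Plin1 and 561 for Plin4. Plin2 followed at 129.9 CPM, G0s2 at 113, Abhd5 at 66.4 and Aqp7 at 21.5. From Pnpla2 down to Plin4, each gene differed from its neighbour in this order by less than the SD between mice of either, and so did Plin2 and G0s2. Among the genes tested, Pnpla2 stood at percentile 99.8 and Aqp7 at 69.6. All 10 members were above the floor in all 22 mice.

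Spread between mice differed from member to member. The highest mouse was 2.22 times the lowest for Cidec and 6.32 times for Aqp7, the narrowest and the widest. The SD of log2(CPM + 1) within groups ran from 0.34 for Lipe to 0.67 for Aqp7. Aqp7 rested on as few as 86 reads in wheel PBS 5, where the SD from counting alone is 10.8%. For Pnpla2 that figure was 1.038% at its fewest reads. Such figures cover counting error only, since reads were not marked by molecule.

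The members varied together from mouse to mouse. Among the 45 pairs the median Pearson r of log2(CPM + 1) over 22 mice was 0.59, and 28 pairs were above 0.5. The closest pair was Cidec with Pnpla2 at 0.91, followed by Plin1 with Mgll at 0.86 and Plin1 with Lipe at 0.82. Plin2 was least like the others, with a median r of 0.23 over its 9 pairs, -0.033 with Cidec, -0.019 with Plin4 and, at most, 0.57 with Lipe. These values are descriptions from libraries that share scaling and tissue composition.

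**Figure D1:**
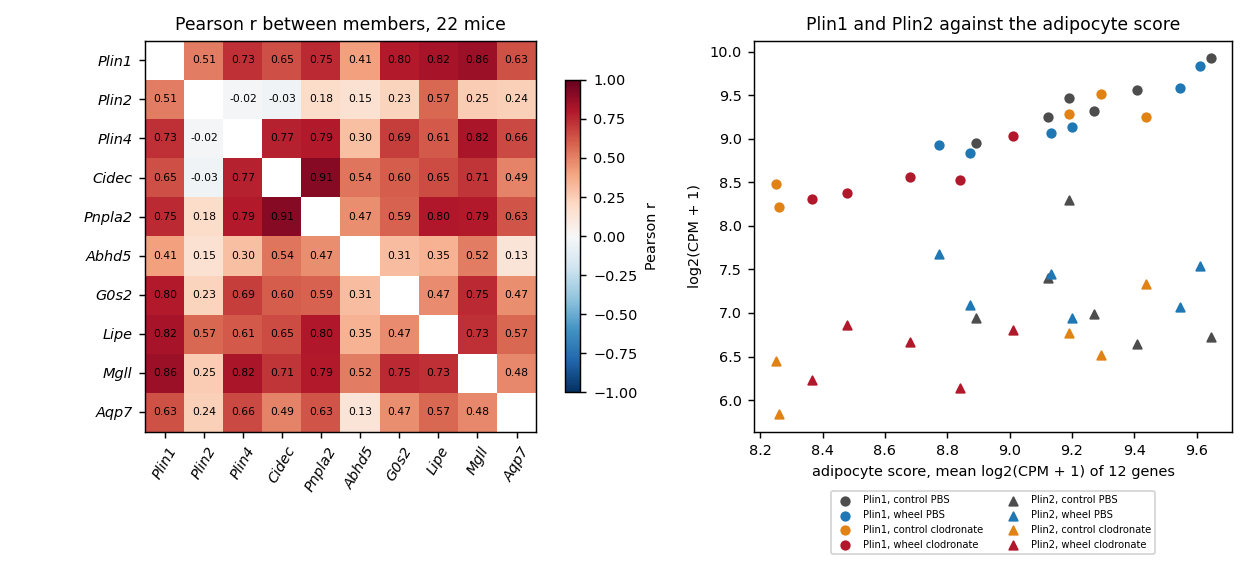
Left, Pearson r of log2(CPM + 1) between members over 22 mice, from -0.033 (Plin2 with Cidec) to 0.91 (Cidec with Pnpla2). Right, log2(CPM + 1) of Plin1 (circles) and Plin2 (triangles) against the adipocyte score, the mean log2(CPM + 1) of 12 marker genes, coloured by group; r was 0.953 for Plin1 and 0.468 for Plin2.

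Each member was also set against the adipocyte score, the mean log2(CPM + 1) of 12 adipocyte markers that are not members. Over the 22 mice, 10 of 10 correlations had an adjusted permutation p under 0.05 (two-sided, adjusted over the 10 members). Mice were permuted without regard to group, so group differences shared by a member and the score count in these p. Correlations of deviations from the group means are given below with no test. Of 15126 tested genes outside the score, 13.2% had a positive r at an unadjusted permutation p under 0.05, as all 10 members did. Adjusted over all those genes instead, 7 members passed, each with a positive r. Of the 15126 genes, 1044 passed, 810 of them with a positive r. Aqp7, Abhd5 and Plin2 did not pass (adjusted permutation p = 0.0719, 0.138 and 0.167). In bulk tissue, fewer adipocytes and less RNA per adipocyte cannot be told apart. Plin1 followed the score most closely, with r = 0.953 and rho = 0.957. Its permutation p was 1e-05 for both, the smallest that 100000 permutations can give, and its adjusted p was 2.5e-05.

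The 3 lipases came next. Lipe had r = 0.878 and rho = 0.845, Mgll r = 0.859 and rho = 0.906, and Pnpla2 r = 0.835 and rho = 0.875, each with a permutation p of 1e-05 for r and for rho. Cidec followed with r = 0.741 and rho = 0.721 (permutation p = 0.00014 and 0.00028, adjusted 0.00028 and 0.000443). G0s2 had r = 0.699 and rho = 0.701 (permutation p = 0.00022 and 0.00031, adjusted 0.000367 and 0.000443), and Plin4 had r = 0.687 and rho = 0.731 (permutation p = 0.00044 and 0.0002, adjusted 0.000629 and 0.0004).

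The lowest were Aqp7, Abhd5 and Plin2. Aqp7 had r = 0.564 and rho = 0.632 (permutation p = 0.00613 and 0.00213, adjusted 0.00766 and 0.00266). Abhd5 had r = 0.495 and rho = 0.456 (permutation p = 0.0196 and 0.0345, adjusted 0.0217 and 0.0383). Plin2 had r = 0.468 with permutation p = 0.0276, unchanged by the adjustment, and rho = 0.380 with permutation p = 0.0833, which missed the threshold.

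Leaving out control clodronate 2 and 3, the mice farthest from the median score, gave r = 0.952 for Plin1, 0.914 for Mgll, 0.813 for Lipe, 0.798 for Plin4, 0.796 for Pnpla2, 0.791 for G0s2, 0.722 for Cidec, 0.533 for Aqp7 and 0.445 for Abhd5. For Plin2 r was 0.284 without them. Leaving out the farthest mice narrows the range of the score, which by itself can lower r. Taken as deviations from the group means, r was 0.944 for Plin1, 0.909 for Pnpla2, 0.885 for Lipe, 0.849 for Cidec, 0.829 for Mgll, 0.717 for Plin4, 0.624 for G0s2, 0.595 for Aqp7, 0.534 for Abhd5 and 0.217 for Plin2. Without the lymphocyte-high mice, Abhd5 (r = 0.328, adjusted permutation p = 0.198) and Plin2 (r = 0.417, adjusted permutation p = 0.105) no longer passed. Without the muscle-high mice Plin2 did not pass (r = 0.322, adjusted permutation p = 0.193).

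Correlations with other marker scores are described here with no test. Plin2 had r = -0.73 (rho = -0.70) with the muscle score, further from 0 than its r with the adipocyte score, and Lipe had -0.57. With the lymphocyte score r was negative for all 10 members, from -0.69 for Plin4 and -0.68 for Mgll to -0.082 for Plin2. With the score of dividing cells it was negative for 9, down to -0.72 for Pnpla2 and -0.70 for Cidec, and 0.18 for Plin2. With the endothelium score it was positive for all 10, at 0.78 for Pnpla2 and 0.65 to 0.66 for Plin1, Cidec, Mgll and Lipe. With the fibroblast score it lay between 0.030 (Abhd5) and 0.61 (Plin1), and with the macrophage score it lay between -0.33 (Abhd5) and 0.35 (Plin2). With the score of brown or beige adipocytes r lay between -0.54 (Aqp7) and 0.020 (Abhd5). With the mammary epithelium score r lay between -0.42 (Plin2) and 0.38 (Plin4).

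Among 9230 genes outside all lists and above the floor in every mouse, the 10 most like the members' mean z score over 22 mice included Aoc3 (r = 0.929), Rras (0.904), Grina (0.902), Pla2g16 (0.901), Pccb (0.900), Ccdc80 (0.899), Abcd2 (0.899), Amy1 (0.896) and Cc2d2a (0.891). Aoc3 encodes an amine oxidase of the cell surface, Pla2g16 a phospholipase of adipose tissue and Abcd2 a peroxisomal fatty acyl-CoA transporter. The choice ranked genes by this likeness, so the r values carry no test.

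**Figure D2:**
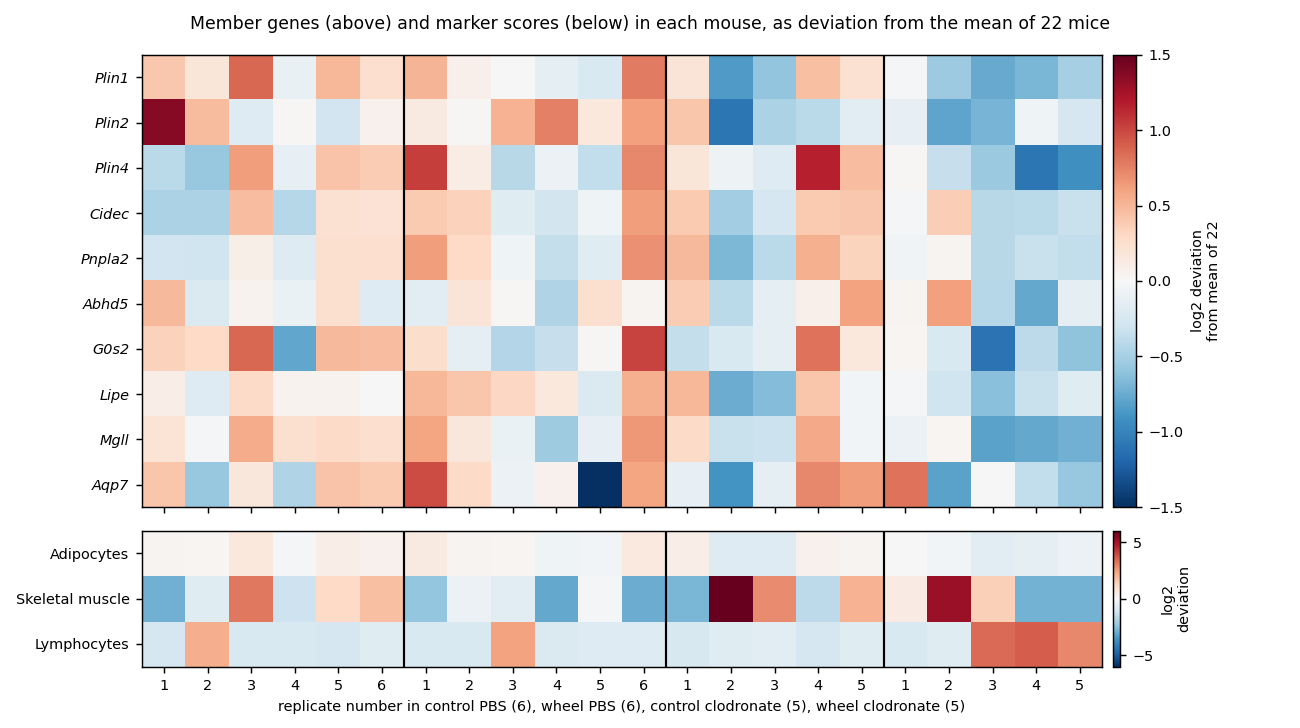
Log2 deviation of each member (top) and of 3 marker scores (bottom) from the mean of 22 mice, a column per mouse, with lines between groups. Control clodronate 2 was the lowest mouse for Plin1, Plin2, Cidec, Pnpla2 and Lipe, and had the highest muscle score at 10.81.

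Clodronate against PBS liposomes, averaged over control and wheel mice, asked whether the members differed with liposomes meant to remove phagocytes. The fitted log2 change was negative for all 10 members, as for 57.4% of all genes tested, although the mean of Abhd5 in CPM was 66.1 with PBS and 66.8 with clodronate. The estimates were furthest from 0 for 2 coat genes, Plin2 and Plin1, and none of the 10 passed the test. Upper-quartile scaling and scaling to assigned reads left 9 of 10 negative, with Abhd5 at 0.027 and 0.020. Without the lymphocyte-high mice 8 were negative, and without the muscle-high mice 6.

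Plin1 was 496, 672 and 970.1 CPM (lowest, median and highest) in control PBS and 456, 549 and 915 CPM in wheel PBS. With clodronate it was 609.7, 297, 355, 734 and 625 CPM in control mice 1 to 5 and 523, 367, 317, 332 and 378 CPM in wheel mice 1 to 5. The clodronate mice were low in 6 of 10 cases, below every PBS mouse, while control clodronate 1, 4 and 5 and wheel clodronate 1 lay inside the PBS range.

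Plin2 was 98.7, 124 and 313 CPM in control PBS and 122, 154 and 204 CPM in wheel PBS. With clodronate it was 161, 56.4, 86.3, 90.7 and 108 CPM in control mice and 111, 69.3, 74.0, 115 and 101 CPM in wheel mice. All 5 wheel clodronate mice were below all 6 wheel PBS mice, with no overlap, a pattern shared by 0.912% of all genes tested. In control mice the groups overlapped, since control clodronate 1 exceeded 4 of 6 PBS mice and control PBS 1 stood well above the rest.

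For Plin2 the mean was 157 ± 58.9 CPM (SD, n = 12) with PBS and 97.2 ± 29.4 CPM (SD, n = 10) with clodronate. Its log2 change was -0.67 ± 0.18 (SE; 95% interval -1.05 to -0.29), with limma adjusted p = 0.131, and 9 of 10 clodronate mice were below the PBS median. For Plin1 the means were 658 ± 168 CPM and 454 ± 155 CPM. Its log2 change was -0.56 ± 0.16 (SE; 95% interval -0.90 to -0.23), with limma adjusted p = 0.158, and 8 of 10 mice were below the PBS median. They ranked 162 and 210 among the 15138 genes tested by limma.

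Plin2 was called only with control clodronate 1 left out. Its log2 change was then -0.76 with a limma adjusted p of 0.0373. Leaving out that mouse also raised the genes called in all from 31 to 146, the most for any mouse left out. Over all alternatives the adjusted p of Plin2 ran from 0.0373 to 0.556. Its log2 change was -0.67 without the lymphocyte-high mice and -0.52 without the muscle-high mice. The Plin1 change was -0.49 and -0.31 in the same subsets, and its adjusted p ran from 0.0891 to 0.676.

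The other coat genes had averages nearer to 0. Plin4 had a log2 change of -0.25 ± 0.21 (SE) and Cidec of -0.074 ± 0.16 (SE), with limma adjusted p of 0.711 and 0.907. Both averages join opposite signs, 0.25 in control mice and -0.75 in wheel mice for Plin4, and 0.16 and -0.30 for Cidec. Cidec was 501, 665 and 961 CPM in control PBS and 578, 779 and 1076 CPM in wheel PBS. With clodronate it was 912, 485, 583, 913 and 921 CPM in control mice and 689, 903, 523, 526 and 551 CPM in wheel mice, inside the PBS range for 9 of 10 mice. Its direction flipped to 0.023 without the lymphocyte-high mice and 0.070 without the muscle-high mice.

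Because scaling cancels in a ratio within a mouse, Plin1 was divided by Cidec, a pair chosen after the values were seen and given with no test. The ratio was 0.786, 0.983 and 1.41 (lowest, median, highest) in control PBS and 0.634, 0.838 and 0.866 in wheel PBS. Its median was 0.669 in control clodronate, with a range of 0.610 to 0.804, and 0.631 in wheel clodronate, with a range of 0.406 to 0.760. The PBS and clodronate mice overlapped. Against Adipoq, the adiponectin gene, the median ratio of Plin1 was 0.417, 0.388, 0.344 and 0.295 in control PBS, wheel PBS, control clodronate and wheel clodronate.

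**Figure D3:**
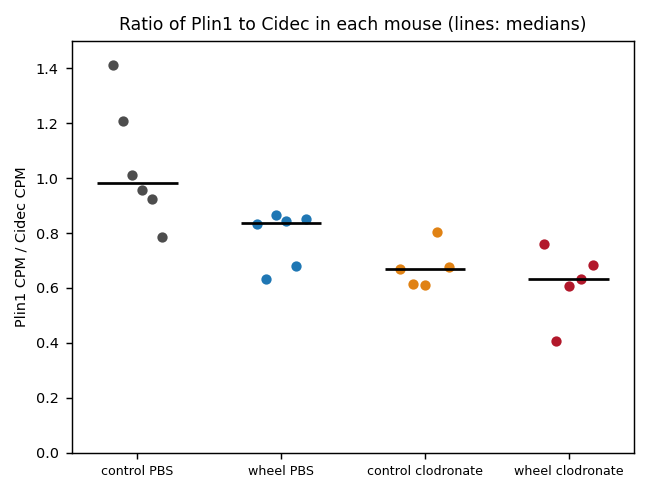
Ratio of Plin1 to Cidec CPM in each mouse (points) by group, with lines at the medians of 0.983, 0.838, 0.669 and 0.631. The highest ratio, 1.41, was in control PBS and the lowest, 0.406, in wheel clodronate.

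Of the lipases, Lipe and Mgll had intermediate changes. Lipe was 605, 719 and 846 CPM in control PBS and 595, 896 and 1006 CPM in wheel PBS, and with clodronate 980.0, 415, 441, 924 and 677 CPM in control mice and 684, 563, 448, 551 and 611 CPM in wheel mice. The control clodronate mice split into a low pair and a high pair, and 5 of 10 clodronate mice were below every PBS mouse. Its log2 change was -0.36 ± 0.14 (SE), with limma adjusted p = 0.350.

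Mgll was 846, 1013 and 1264 CPM in control PBS and 591, 883 and 1339.8 CPM in wheel PBS. With clodronate it was 1042, 681, 682, 1274 and 832 CPM in control mice and 807, 877, 492, 501 and 521 CPM in wheel mice. The 3 lowest were the lymphocyte-high wheel clodronate mice, and 8 of 10 clodronate mice were below the PBS median. Its log2 change was -0.40 ± 0.16 (SE), with limma adjusted p = 0.348.

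The remaining members were Pnpla2 at a log2 change of -0.15 ± 0.16, G0s2 at -0.38 ± 0.20, Aqp7 at -0.13 ± 0.27 and Abhd5 at -0.029 ± 0.15 (SE), with limma adjusted p from 0.522 to 0.963. Pnpla2 spanned 566 to 1456 CPM over all mice, G0s2 48.8 to 216 CPM, Abhd5 37.5 to 99.5 CPM and Aqp7 6.30 to 39.8 CPM. Without the muscle-high mice, Pnpla2 was at 0.024, Aqp7 at 0.14 and Abhd5 at 0.0035.

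In this comparison limma called 31 genes, all lower with clodronate, which is 0.205% of those tested, and 0 of the 10 members. At an unadjusted p under 0.05, 4 members were lower (Plin1, Plin2, Lipe and Mgll), against 1256 genes or 8.3% of all genes. Under upper-quartile scaling there were 2 such members (Plin1 and Plin2), against 785 genes or 5.19%, and 49.2% of all genes were lower. The median log2 change was -0.31 over the members and -0.042 over all genes, and the median over the members was -0.19 without the lymphocyte-high mice and -0.11 without the muscle-high mice. Without the lymphocyte-high or the muscle-high mice, 0 genes were called by limma, with 1873 and 1111 at an unadjusted p under 0.05 and 2 members among them in each. These gene counts take in both directions. Of the 1873 genes, 1435 were lower and 438 higher, among 15109 tested.

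**Figure D4:**
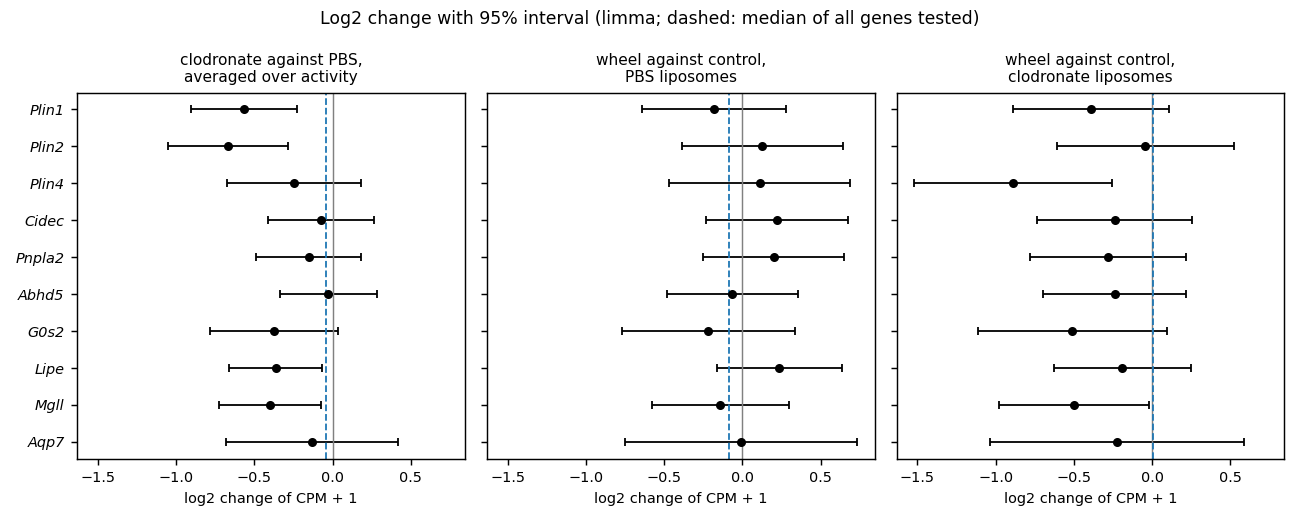
Log2 change (points) with 95% interval (bars) of each member in 3 comparisons by limma, with the median of all genes as a dashed line. With liposomes averaged over activity, Plin1 (-0.56) and Plin2 (-0.67) were furthest from 0, and Abhd5 (-0.029) turned to 0.027 under upper-quartile scaling.

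Marker lists are given beside the members. All 12 adipocyte markers were lower with clodronate, with a median log2 change of -0.40 and 5 at an unadjusted p under 0.05. The adipocyte score was 9.26 ± 0.26 in control PBS, 9.19 ± 0.34 in wheel PBS, 8.89 ± 0.58 in control clodronate and 8.68 ± 0.26 in wheel clodronate (SD). Muscle markers were higher in 10 of 10, with a median of 1.52, and lymphocyte markers in 12 of 12, with a median of 0.89. Macrophage markers were lower in 11 of 12, with a median of -0.20, and fibroblast markers in 6 of 6, with a median of -0.51. The medians were 0.015 for mammary epithelium, 0.027 for brown or beige adipocytes, -0.11 for dividing cells and -0.22 for endothelium. In each of these lists limma called 0 genes at an adjusted p under 0.05, and at an unadjusted p under 0.05 it found 2 of 12 macrophage and 4 of 6 fibroblast markers lower. The part of these markers in the members' values was not tested.

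Other genes of the pathway were read from 3 lists. Of 17 other droplet proteins 15 were tested, since Cideb and Hsd17b13 did not pass the filter, and 13 were lower with clodronate, with a median log2 change of -0.27. Of 28 genes that control lipolysis 21 were lower, with a median of -0.20, and of 14 other lipases, fatty acid carriers and glycerol genes 10 were lower, with a median of -0.23. Limma called 0 genes in each list, and at an unadjusted p under 0.05 it found 5, 9 and 7 genes, of which 1 in the last list was higher. Over all genes tested, 57.4% were lower, with a median of -0.042, and 8.3% were lower at that level.

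The droplet genes with the largest changes were Fitm1, which helps partition fat into droplets, at 0.73 ± 0.40 (SE), with Cav1 and Cavin2, of the caveolae in the adipocyte membrane, at -0.49 ± 0.19 and -0.42 ± 0.17. Their limma adjusted p were 0.537, 0.353 and 0.375. Fitm1 was at the floor in 15 of 22 mice and reached at most 29.3 CPM. Among genes that control lipolysis, Ptger3 and Adora1 encode receptors that restrain it, and Npr3 encodes the clearance receptor for natriuretic peptides, which promote it.

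Ptger3 was 23.1 ± 5.48 and 22.8 ± 7.09 CPM with PBS in control and wheel mice (SD) and 13.3 ± 5.31 and 12.2 ± 4.50 CPM with clodronate. Its log2 change of -0.85 ± 0.20 (SE) had a limma adjusted p of 0.0836, the lowest among the 57 tested genes of the 3 lists. Npr3 had a log2 change of -0.89 ± 0.44 and Adora1 one of -0.56 ± 0.17, with limma adjusted p of 0.497 and 0.188.

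Among other lipases and carriers, Pnpla3, a relative of Pnpla2, had a log2 change of -1.04 ± 0.28 (SE; limma adjusted p = 0.118). Gpd1, which supplies the glycerol backbone of triglyceride, had -0.77 ± 0.22 (adjusted p = 0.158), and Fabp5, a fatty acid carrier, -0.75 ± 0.26 (adjusted p = 0.262). Pnpla3 was 48.6 ± 11.2 CPM in control PBS, 34.6 ± 17.4 in wheel PBS, 24.4 ± 18.3 in control clodronate and 18.6 ± 9.67 in wheel clodronate (SD).

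**Figure D5:**
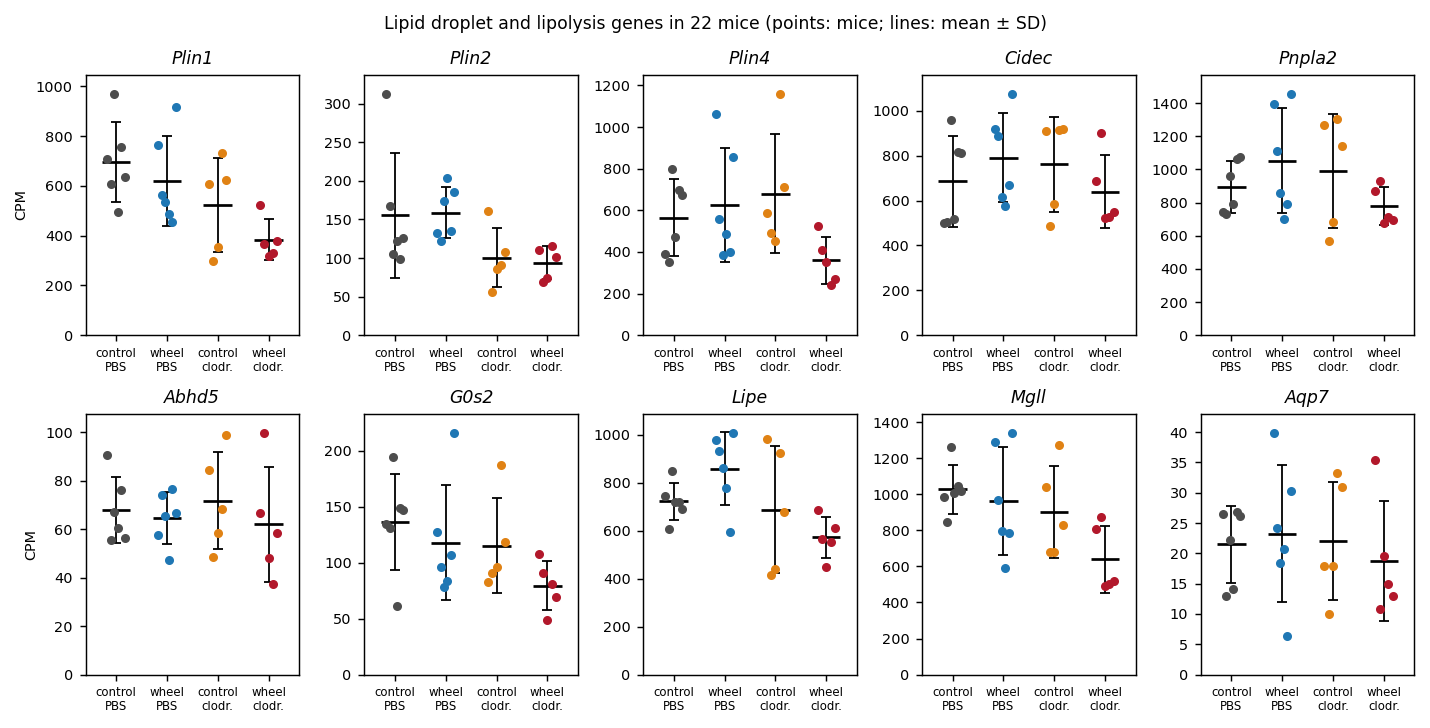
CPM of each member in each of 22 mice (points) with mean ± SD (lines) in 4 groups of 6, 6, 5 and 5 mice. Plin2 in wheel clodronate (69.3 to 115 CPM) lay below all wheel PBS mice (122 to 204 CPM), and the groups overlapped for the other members.

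Wheel against control with PBS liposomes asked whether running alone went with a difference in these genes. The members lay on both sides of 0, with 5 higher and 5 lower, log2 changes from -0.22 for G0s2 to 0.24 for Lipe and a median of 0.051. Of all genes tested, 63.8% were lower. Limma called 0 of 10 members and 0 of 15138 genes (0%), and at an unadjusted p under 0.05 it found 0 members and 744 genes. Upper-quartile scaling moved the median of all genes by about 0.1 in 3 comparisons, here from -0.085 to -0.0012. Under it Abhd5 turned from -0.063 to 0.034 and Aqp7 from -0.0080 to 0.086. The median over the members was 0.15 under that scaling, with 3 lower, and 50.2% of all genes were lower. In CPM as listed, the median over the members was -0.0017 without the lymphocyte-high mice. It ran from -0.064 to 0.19 with single mice left out.

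The coat genes gave small and mixed estimates in this comparison. The log2 change was -0.18 ± 0.22 for Plin1, 0.13 ± 0.25 for Plin2, 0.11 ± 0.28 for Plin4 and 0.22 ± 0.22 for Cidec (SE). Of the lipases, Lipe had 0.24 ± 0.19, Pnpla2 0.20 ± 0.22 and Mgll -0.14 ± 0.21. G0s2 was 61.3, 141 and 194 CPM in control PBS and 78.2, 102 and 216 CPM in wheel PBS, with 5 of 6 wheel mice below the control median, and its change was -0.22 ± 0.27. The 95% intervals reached from -0.64 to 0.28 for Plin1 and from -0.17 to 0.64 for Lipe. Both held 0, so neither the sign of these changes nor their absence was shown. Limma adjusted p was 0.987 or more for all 10.

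In the 3 pathway lists the medians were -0.094 for other droplet proteins, -0.016 for control of lipolysis and -0.029 for other lipases and carriers, beside -0.085 for all genes. Limma called 0 of them, and at an unadjusted p under 0.05 found 0, 1 (Npr3) and 1 (Slc27a1). Npr3 had the largest change at -1.44 ± 0.60 (SE), with 127 ± 75.4 CPM in control PBS and 65.6 ± 72.8 CPM in wheel PBS (SD). Next in its list were Adrb1, a receptor for noradrenaline, at 0.49 and Npy1r, a receptor for neuropeptide Y, at -0.49. Aqp3, another glycerol channel, was at -0.72, Pnpla3 at -0.59 and Slc27a1, a fatty acid transporter, at 0.47. Cavin2 was at -0.45, Fitm1 at -0.42 and Aup1, of the droplet surface, at -0.36. All 9 had a limma adjusted p of 0.987 or more. Beside them, 10 of 10 muscle markers were lower in wheel mice, with a median of -1.92, and 10 of 10 markers of dividing cells, with a median of -0.81, none at an unadjusted p under 0.05 by limma. Adipocyte markers had a median of -0.031, with 6 of 12 lower.

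Wheel against control with clodronate liposomes asked the same in mice given liposomes meant to remove phagocytes. All 10 members were lower in wheel mice, with a median log2 change of -0.26, beside 0.0045 over all genes, of which 49.3% were lower. Scaling to assigned reads turned Plin2 from -0.043 to 0.029. Without the lymphocyte-high mice, which left 2 wheel clodronate mice, Cidec was at 0.098 and Abhd5 at 0.23.

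Plin4 stood out in this comparison. It was 588, 491, 451, 1159.9 and 714 CPM in control clodronate 1 to 5 and 523, 407, 351, 243 and 272 CPM in wheel clodronate 1 to 5. In wheel clodronate 4 of 5 mice were below every control clodronate mouse, and wheel clodronate 1 overlapped them. With PBS it was 349.7, 574 and 801 CPM in control mice and 388, 523 and 1064 CPM in wheel mice, which overlapped widely.

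The log2 change of Plin4 was -0.89 ± 0.31 (SE; 95% interval -1.52 to -0.25), with limma adjusted p = 0.273, rank 444 of 15138 genes. It was -0.47 without the lymphocyte-high mice and -1.24 without the muscle-high mice, and over all alternatives its adjusted p ran from 0.106 to 0.955. Mgll had -0.50 ± 0.23 (limma adjusted p = 0.446), G0s2 -0.51 ± 0.29 and Plin1 -0.39 ± 0.24. The other 6 lay between -0.28 and -0.043.

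Limma called 0 of the 10 members and 1 gene in all (0.00661%), Gm7536, named after its values were seen. It averaged 1.00 CPM in control clodronate and 2.22 CPM in wheel clodronate and was at the floor in 13 of 22 mice. At an unadjusted p under 0.05, 2 members were lower (Plin4 and Mgll), against 514 genes or 3.4% of all genes. All 12 lymphocyte markers were higher in wheel mice, with a median of 2.48 and 12 at an unadjusted p under 0.05, and 9 of 10 muscle markers were lower, with a median of -1.16. Adipocyte markers were lower in 8 of 12 (median -0.19). Brown or beige adipocyte markers were lower in 5 of 5 tested (-0.34) and mammary epithelium markers in 7 of 10 (-0.21). Macrophage markers were higher in 8 of 12 (0.12). Their part in the members' values was not tested. The member values moved both ways with the mice left out. With the lymphocyte-high mice left out, the median over the members was -0.058, and limma found 0 members at an unadjusted p under 0.05. Without the muscle-high mice, which left 3 control and 4 wheel mice, the median was -0.70 and 7 members were lower at that level, against 5.52% of all genes, with limma adjusted p of 0.127 or more.

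The liposome comparison was also made within each activity, with comparisons that share groups with those above. In control mice 6 of 10 members were lower with clodronate, as were 65.4% of all genes, with a median of -0.089 beside -0.10 over all genes. Upper-quartile scaling moved the median of all genes to -0.0069 and turned Aqp7 from -0.026 to 0.086. Limma called 0 of 10 members and 0 genes (0%), and at an unadjusted p under 0.05 found 1 member, Plin2, and 1058 genes. Plin2 was lower, as were 921 of those genes, or 6.08% of all. Plin2 had a log2 change of -0.58 ± 0.26 (SE; limma adjusted p = 0.673) and Plin1 of -0.46 ± 0.23 (limma adjusted p = 0.720). Under upper-quartile scaling limma found 0 members and 386 lower genes at an unadjusted p under 0.05. The median over the members was 0.025 under that scaling, and 51.1% of all genes were lower. Scaling to assigned reads, or fitting only the groups compared, also left 0 members at that level. Without the muscle-high mice, Plin1 was at 0.043, Lipe at 0.29, Mgll at 0.081, G0s2 at 0.042 and Aqp7 at 0.37 in place of negative values. The median over the members was then 0.30, and the 2 members at an unadjusted p under 0.05 were Cidec (0.58) and Pnpla2 (0.51), both higher, against 1.22% of all genes. The muscle-high mice here were control PBS 3, with the highest adipocyte score of its group (9.65), and control clodronate 2 and 3, with the lowest of theirs (8.26 and 8.25). With the lymphocyte-high mice left out the median was -0.18, and limma found 0 members at that level. Adipocyte markers were lower in 12 of 12, with a median of -0.20, lymphocyte markers in 11 of 12 (-0.44), macrophage markers in 11 of 12 (-0.36) and dividing-cell markers in 9 of 10 (-0.61). Muscle markers were higher in 10 of 10, with a median of 1.14.

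In wheel mice all 10 members were lower with clodronate, against 49.9% of all genes, with a median of -0.55 beside 0.00020 over all genes. The wheel clodronate libraries had 57.2% to 58.5% of reads assigned to genes above the floor, with a mean of 57.9%, and the means of the other groups were 62.1% in control PBS, 60.8% in wheel PBS and 60.9% in control clodronate. Scaled to assigned reads, all 10 members were still lower, with a median of -0.48 beside 0.058 over all genes. Limma called 0 of 10 members and again Gm7536 alone (0.00661%). With the place of each mouse in the order of title numbers as a block, limma called 0 genes and 0 members, with 1674 genes and 5 members at an unadjusted p under 0.05. That gene count takes in both directions, and the like count without the block was 1759. At an unadjusted p under 0.05, 5 members were lower, against 838 genes or 5.54% of all genes. These were Plin2 at -0.75 ± 0.26, Plin4 at -0.75 ± 0.29, Plin1 at -0.67 ± 0.23, Lipe at -0.58 ± 0.20 and Mgll at -0.58 ± 0.22 (SE), with limma adjusted p from 0.267 to 0.323. Without the lymphocyte-high mice, which left 2 wheel clodronate mice, limma found 0 members at an unadjusted p under 0.05, the median was -0.24 and Abhd5 turned to 0.35. Without the muscle-high mice 7 members were lower at that level, against 6.35% of all genes, with a median of -0.58. Lymphocyte markers were higher in 12 of 12, with a median of 2.00, and muscle markers in 10 of 10, with a median of 1.84. Adipocyte markers were lower in 12 of 12, with a median of -0.42 and 6 at an unadjusted p under 0.05 by limma. Macrophage markers were lower in 9 of 12 (-0.19), with 0 at that level. Also at that level were 3 of 15 other droplet proteins, 7 of 28 genes that control lipolysis and 5 of 14 other lipases and carriers, all lower.

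The interaction asked whether the liposome difference depended on activity. All 10 members had negative estimates, against 40.8% of all genes, with a median of -0.32 beside 0.091 over all genes, and upper-quartile scaling moved the latter to -0.0092. Limma called 0 of 10 members and 0 genes (0%), and at an unadjusted p under 0.05 found 1 member and 1147 genes, of which 186, or 1.23% of all genes, were negative. The member was Plin4, also negative, at -0.998 ± 0.41 (SE; limma adjusted p = 0.625), whose liposome difference was 0.25 in control mice and -0.75 in wheel mice. Under upper-quartile scaling 51.0% of all genes were negative. At an unadjusted p under 0.05 limma then found 392 negative genes and 1 member. Without the lymphocyte-high mice the median over the members was -0.072, with 0 members at an unadjusted p under 0.05 by limma, and Plin1 was at 0.0072, Abhd5 at 0.35, Mgll at 0.098 and Aqp7 at 0.078. Without the muscle-high mice all 10 members were negative, with a median of -0.74 beside 0.11 over all genes. Of them 7 had an unadjusted p under 0.05, against 3.47% of all genes with negative estimates at that level, and limma adjusted p was 0.276 or more. Estimates were positive for 12 of 12 lymphocyte markers, with a median of 2.31 and 4 at an unadjusted p under 0.05, for 10 of 10 muscle markers (0.72) and for 9 of 10 dividing-cell markers (0.90). They were negative for 9 of 12 adipocyte markers (-0.23) and for 9 of 10 mammary epithelium markers (-0.28). For no member did the interaction pass the test, in all mice or in these subsets.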

How the data were processed

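RNA of 22 mouse mammary tissues was read by 3' end sequencing (QuantSeq). The deposited files hold the signal of each gene in CPM, read counts scaled to library size, listed as 1 where lower. Their processing notes name STAR 2.5.3a and GRCm38. The counting tool, its annotation and its use of strand are not given in the sources used here. Each value above the floor, times the library total, was a whole number of reads within 0.05 reads. The 4 entries that name no gene held 35.4% to 42.6% of reads and were left out, and 57.2% to 64.5% were in gene values above the floor. Of 52526 symbols, 106 were listed more than once, and of each the entry with the highest mean was used.

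Genes above 1 CPM in at least 5 mice (15138) were fitted as log2(CPM + 1) with limma 3.58.1 in R 4.3.3. The fit had 4 group means, a variance trend and Benjamini-Hochberg adjustment over all genes, with calls at an adjusted p under 0.05. It was also run on simulated data, whose outcome is not reported here, and no result above rests on that run. Correlations used 100000 permutations in numpy 2.4.6 and scipy 1.17.1. Figures used matplotlib 3.10.9, tables pandas 2.3.3 and the search of gene ends blastn 2.17.0. RefSeq promoters held all 10 members.

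Alternatives were a pseudocount of 0.1 or 5, no filter, a mean of at least 5 CPM, upper-quartile scaling, scaling to assigned reads, no variance trend, only the groups compared, a block by replicate number or by place of the title number, each mouse left out, and mice with a lymphocyte score above 3 or a muscle score above 7 left out. With no filter, genes with the same value in all fitted mice were dropped, since they have no spread to test.

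The members and all gene lists were chosen with earlier results of these data known. Pathway genes outside the members were named by a rule: those called, or else the 3 with the largest absolute log2 change per list, for liposomes averaged over activity and for wheel against control with PBS liposomes. The 10 genes most like the members were ranked by r, and 1 of them is not reported here. Cidea is in the lists of droplet proteins and of brown or beige adipocytes.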

Additional observations from a re-analysis of the deposited data

Results flagged for a closer look

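In each group of mice, the highest and the lowest value were checked for a gap to the next mouse that was large beside the range of the group. This was done for 76 sets of values, of which 40 were single members in a group, and 4 stood out, 1 of them a member. Chance flags about 1 in 20 groups.

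G0s2 was lowest in control PBS 4, at 5.96 on the log2(CPM + 1) scale (61.3 CPM), with the next mouse at 7.04. The lymphocyte marker score was highest in control PBS 2, at 4.17, with the next at 1.27, and in wheel PBS 3, at 4.45, with the next at 1.25. The macrophage marker score was lowest in wheel PBS 5, at 3.87, with the next at 4.50. The cause of these values was not tested.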

How the results depend on the processing

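Of 700 member changes recomputed under alternatives other than leaving out single mice, 31 reversed, with an adjusted p of 0.674 or more in each. The cause of each was not tested, except that a smaller count of mice or genes is part of some alternatives. Leaving out muscle-high mice and the block by title place were added after seeing the data.

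Members called by limma were 0 in every comparison and alternative except 1. Without control clodronate 1, Plin2 was called with clodronate averaged over activity (-0.76, adjusted p = 0.0373), so leaving out single mice gave 0 to 1 there. That fit called 146 genes in all, against 31 as reported.

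Genes called, wheel against control with PBS liposomes: 0 by limma under each alternative (744 genes had an unadjusted p under 0.05 as reported). With clodronate liposomes this comparison called 1 gene as reported, 3 with no filter, 6 without lymphocyte-high mice, and 0 without muscle-high mice, with the groups compared fitted alone, or with genes averaging 5 CPM or more. Leaving out single mice gave 0 to 236 (118 without wheel clodronate 1, 236 without wheel clodronate 2, 0 without wheel clodronate 5 or without control clodronate 1, 2, 3 or 4).

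Clodronate against PBS in control mice called 0 genes, and 0 to 38 with single mice left out (38 without control clodronate 1, 1 without control PBS 5 or 6). In wheel mice it called 1 gene, 3 with pseudocount 5, 4 with no filter, 0 with genes averaging 5 CPM or more, 3 with upper-quartile scaling, 2 with scaling to assigned reads, 2 with no variance trend, 0 with those groups fitted alone, 3 without lymphocyte-high mice and 14 without muscle-high mice. Single mice left out gave 0 to 51 (28 without wheel clodronate 1, 51 without wheel clodronate 2, 0 without wheel clodronate 5).

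Averaged over activity, clodronate called 31 genes, 54 with genes averaging 5 CPM or more, 12 with upper-quartile scaling, 15 with scaling to assigned reads, 20 with no variance trend, and 0 without lymphocyte-high or without muscle-high mice. Single mice left out gave 9 to 146 (14 without control PBS 1, 15 without control PBS 3, 70 without control PBS 4, 146 without control clodronate 1, 12 without control clodronate 2, 9 without control clodronate 3, 19 without wheel clodronate 2, 14 without wheel clodronate 3). The interaction called 0 genes, 2 with no filter and 0 to 0 with single mice left out.

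Replicate numbers count mice within a group, and the labels pair no mice. Deviations of same-numbered mice correlated at a mean r of -0.075 to 0.18 between groups, and single pairs ran from -0.39 to 0.52. With the replicate number as a block, genes called were 0 for wheel against control with clodronate, 0 for clodronate in wheel mice and 11 averaged over activity. Under the block Aqp7 was at 0.061 for clodronate in control mice, and Cidec at 0.0035 averaged over activity. Title numbers skip 1 in each clodronate group, so replicate 5 there has place 6 in its run of 6. By place, 5 of 5 pairs of wheel PBS with wheel clodronate were over 0.1 (mean r 0.23), and 1 of 6, 3 of 5 and 3 of 5 in the other group pairs. That is a hint from the data and not the design. A replicate block by place gave 0 genes for wheel against control with clodronate, 0 for clodronate in wheel mice and 39 averaged over activity, where Abhd5 was 0.016, and it changed no call of a member.

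Reversed log2 changes, wheel against control with PBS: Abhd5 0.034 with upper-quartile scaling; Aqp7 0.016 with pseudocount 5, 0.086 with upper-quartile scaling, 0.020 with assigned reads and 0.013 without muscle-high mice. Wheel against control with clodronate: Plin2 0.029 with assigned reads, Cidec 0.098 and Abhd5 0.23 without lymphocyte-high mice. Clodronate in control mice: Plin1 0.043, G0s2 0.042, Lipe 0.29, Mgll 0.081 and Aqp7 0.37 without muscle-high mice, and Aqp7 0.086 with upper-quartile scaling and 0.0017 with assigned reads. Clodronate in wheel mice: Abhd5 0.35 without lymphocyte-high mice.

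Averaged over activity, without lymphocyte-high mice: Cidec 0.023 and Abhd5 0.18. Without muscle-high mice: Cidec 0.070, Pnpla2 0.024, Abhd5 0.0035 and Aqp7 0.14. Abhd5 was 0.027 with upper-quartile scaling and 0.020 with assigned reads. Interaction without lymphocyte-high mice: Plin1 0.0072, Abhd5 0.35, Mgll 0.098 and Aqp7 0.078.

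Single mice left out turned these ranges across 0. Wheel against control with PBS: Plin4 -0.064 to 0.23, Abhd5 -0.12 to 0.024, Aqp7 -0.19 to 0.30. Wheel against control with clodronate: Plin2 -0.23 to 0.15. Clodronate in control mice: Pnpla2 -0.030 to 0.27, Abhd5 -0.067 to 0.18, Lipe -0.30 to 0.0071, Aqp7 -0.20 to 0.21. In wheel mice: Abhd5 -0.30 to 0.042. Averaged: Cidec -0.14 to 0.0013, Abhd5 -0.12 to 0.050. Interaction: Plin2 -0.40 to 0.018. Averaged over activity, Plin1 held -0.64 to -0.47 and Plin2 -0.76 to -0.56.

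Correlations with the adipocyte score that passed were 10 as reported, 8 without lymphocyte-high mice and 9 without muscle-high mice. These counts were adjusted over the 10 members only, and the subsets were not run over all genes. A first run with no filter kept genes that have the same value in every mouse, 33357 in all. Rounding then gave 33904 to 34743 genes called in 4 comparisons and 5 and 4 members called for clodronate in wheel mice and averaged, and that run was not used.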

Other observations

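Dgat2, Scd2, Agpat3 and Pgd were among the 31 genes that limma called lower with clodronate averaged over activity. They were picked after their values were seen, and no list of genes of their kind was tested. Dgat2, which makes triglyceride, had a log2 change of -1.09 ± 0.19 (SE; adjusted p = 0.0144), Scd2, a fatty acid desaturase, -1.43 ± 0.26 (adjusted p = 0.0167), and Agpat3, an acyltransferase, -0.53 ± 0.11 (adjusted p = 0.0492). Pgd, which supplies NADPH, had -1.19 ± 0.21 (adjusted p = 0.0167). Without the lymphocyte-high or the muscle-high mice, 0 genes were called by limma in this comparison, with 1873 and 1111 at an unadjusted p under 0.05.

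Levels of RNA do not show protein, its phosphorylation or the rate of lipolysis, none of which was measured. Tissue was taken at 24 hours after engraftment and at no other time. No group lacked engrafted cells. Each library pools cell types. Aqp7 rested on 86 to 555 reads.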
